A study of Homo sapiens with 12 samples.

Results

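CDKN1A and 8 other p53 target genes that slow growth or answer stress (GADD45A, SESN1, SESN2, PLK2, PLK3, ZMAT3, GDF15 and TP53INP1) were followed through 12 RNA-seq libraries of A549 cells. These 9 genes are 9 of the 25365 gene names in the deposited expression table and 9 of the 11881 names whose mean level over the libraries reached 1 FPKM (fragments mapped to a transcript, scaled for its length and for all mapped fragments of the library), the genes on which every test below was run. They were chosen by name as textbook p53 targets, at a time when the higher CDKN1A level with pyridostatin in these libraries was already known. Their differences between pyridostatin and vehicle are therefore given as a description, without p-values, and counts of them past a threshold only describe these genes. Test results for single genes among the 9 are given for the differences between genotypes and for the interaction of genotype and treatment.

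A549 is an established human lung adenocarcinoma line. Wild-type and PARP3-/- A549 cells received either the DMSO vehicle or 1 µM pyridostatin, a small molecule that binds and stabilizes G-quadruplex (G4) DNA, for 24 h, and each of the 4 groups holds 3 biological replicates. The homozygous PARP3 deletion was made with transiently expressed Cas9 and a puromycin-resistance plasmid, cells were then cloned by serial dilution, and the study describes the PARP3-/- A549 cells as carrying its AAVS1 translocation reporter. How many clones were sequenced, and whether the wild-type cells carried the same reporter, was not given in the sources used here, so that genotype, clone and reporter cannot be told apart.

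p53 is a transcription factor that is stabilized after DNA damage and switches on genes for cell cycle arrest, repair, metabolism and death. CDKN1A encodes p21, an inhibitor of cyclin-dependent kinases and the best known arrest effector of p53. The other genes act beside it, GADD45A in growth arrest and damage response, the sestrins SESN1 and SESN2 in antioxidant defence and restraint of mTORC1, the polo-like kinases PLK2 and PLK3 in stress signalling, ZMAT3 as an RNA-binding protein, GDF15 as a secreted stress cytokine of the TGF-beta superfamily, and TP53INP1 as a p53 cofactor with a part in autophagy.

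Keratins of epithelial cells were high in all 12 libraries, and PARP3 itself did not separate the genotypes in the direction of the labels. The keratins KRT8 and KRT18 lay between 2207 and 3375 FPKM, and CDKN2A, which is deleted in A549, was listed at 0 in all 12 libraries. PTPRC, PECAM1, VWF, COL1A2 and PDGFRB stayed below 0.05 FPKM in every library. The other epithelial markers were lower than the keratins, EPCAM at 0.879 to 2.36 FPKM and CDH1 at 9.85 to 16.7 FPKM. Of the other markers of non-epithelial cells, CD68 read 14.0 to 21.1 FPKM, COL1A1 0.572 to 1.63 FPKM and LUM at most 0.454 FPKM. PARP3 read 3.83, 3.40 and 3.96 FPKM in the vehicle wild-type libraries and 4.92, 4.07 and 4.25 FPKM in those labelled PARP3-/-, a log2 difference of 0.19 (limma adjusted p = 0.137). With pyridostatin it read 3.74, 3.57 and 4.05 FPKM in wild type and 4.73, 4.71 and 4.30 FPKM under the PARP3-/- label, a difference of 0.22 (limma adjusted p = 0.0781, and 0.0403 without the second wild-type vehicle library). The study shows a sequenced Cas9 deletion in the first exon of PARP3. It also reports that re-expressed PARP3 complemented the pyridostatin sensitivity of its PARP3-/- A549 cells. Immunoblots of PARP3-/- A549 cells with empty vector or re-expressed PARP3 are shown in the study as well, and their bands were not examined here. A short deletion need not lower the signal of the whole gene, and no level per exon was used here. In what follows, "PARP3-/-" means the libraries that carry this label. The second wild-type vehicle library had the highest summed FPKM, 563473 against 492839 to 525124 in the others, and calls of the named genes that change without it are given beside them.

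The promoters show what sequence these genes do and do not share in the stretch just before their start sites. Start-site windows of 250 bases were available from RefSeq for 7 of the 9 genes, 10 windows in all, and GADD45A and TP53INP1 were not matched. The p53 half-site, a run of 10 bases, both strands searched, was found in 2 of the 10 windows, 1 of PLK2 and 1 of SESN1, against 5.57% of 35116 windows of all genes and 4.83% of the 12680 windows of tested genes. A G4 motif, here 4 runs of at least 3 G with loops of 1 to 7 bases on either strand, was found in 2 windows, of CDKN1A and of another SESN1 start, against 23.5% of all windows and 32.1% of those of tested genes. GC boxes (GGGCGG on either strand, which can overlap a G4 motif) were found in 9 windows, against 42.6% and 64.3%. The 4 windows with a p53 half-site or G4 motif are printed, 5′ to 3′ on the gene's own strand (RefSeq, GRCh38.p14) and ending at the base before the start site, with the half-site or G4 motif in capitals.

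CDKN1A, chr6:36678464-36678713, + strand, G4 motif at -116 to -92: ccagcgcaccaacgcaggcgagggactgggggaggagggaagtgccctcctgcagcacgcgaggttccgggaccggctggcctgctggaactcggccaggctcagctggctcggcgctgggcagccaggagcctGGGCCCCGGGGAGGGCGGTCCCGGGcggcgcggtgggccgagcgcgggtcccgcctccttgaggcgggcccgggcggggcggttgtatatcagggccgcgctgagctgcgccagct
SESN1, chr6:109094847-109095096, - strand, G4 motif at -50 to -31: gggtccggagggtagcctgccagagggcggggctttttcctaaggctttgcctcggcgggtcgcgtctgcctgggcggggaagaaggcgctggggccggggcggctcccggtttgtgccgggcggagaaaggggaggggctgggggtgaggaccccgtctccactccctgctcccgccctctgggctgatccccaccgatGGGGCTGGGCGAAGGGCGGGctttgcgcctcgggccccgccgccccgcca
SESN1, chr6:109008989-109009238, - strand, p53 half-site at -49 to -40: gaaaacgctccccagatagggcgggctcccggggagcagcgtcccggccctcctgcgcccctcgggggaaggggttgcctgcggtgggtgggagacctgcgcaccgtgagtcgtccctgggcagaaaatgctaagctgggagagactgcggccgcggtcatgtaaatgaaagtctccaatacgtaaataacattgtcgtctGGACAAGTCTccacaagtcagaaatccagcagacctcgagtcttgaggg
PLK2, chr5:58460087-58460336, - strand, p53 half-site at -132 to -123: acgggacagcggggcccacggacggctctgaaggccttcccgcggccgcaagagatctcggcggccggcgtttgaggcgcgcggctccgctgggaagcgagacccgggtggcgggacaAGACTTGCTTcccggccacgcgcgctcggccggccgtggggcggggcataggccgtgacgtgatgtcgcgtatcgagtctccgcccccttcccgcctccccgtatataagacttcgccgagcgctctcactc

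CDKN1A thus has a G4 motif but no p53 half-site in the 250 bases before this start, and sequence outside the windows was not searched. A match describes letters in the window, not a bound or folded site.

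**Figure D1:**
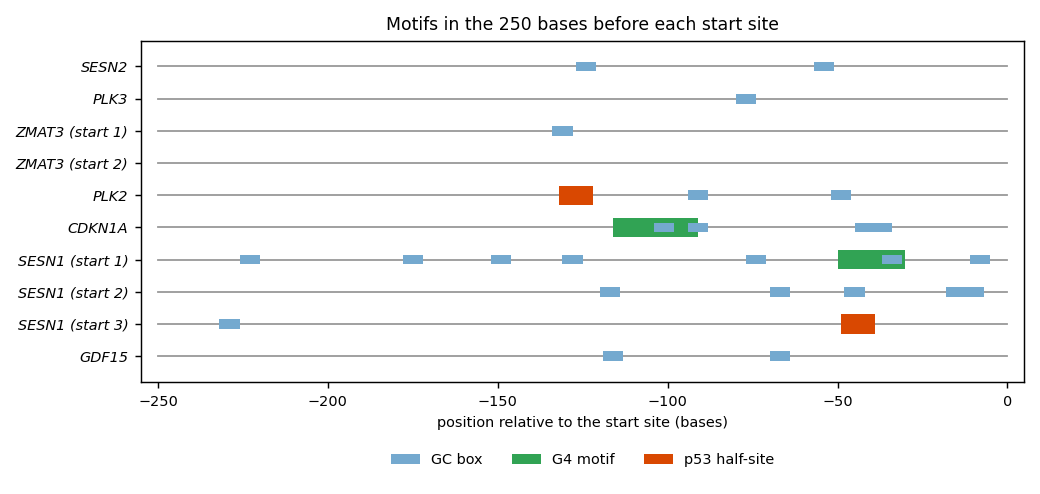
Positions, in bases before the start site, of GC boxes (blue), G4 motifs (green) and p53 half-sites (orange) on the 10 promoter windows of 7 genes, 1 line per window. GC boxes fall in 9 windows, whereas G4 motifs and p53 half-sites fall in 2 windows each.

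CDKN1A was the most abundant of the 9 genes in pyridostatin-treated cells of both genotypes. In wild-type cells it read 85.6, 94.9 and 80.5 FPKM with vehicle (mean 87.0 ± 7.27, SD, n = 3 as in every group here) and 194, 196 and 189 FPKM with pyridostatin (193 ± 3.40). In PARP3-/- cells it read 95.6, 102 and 102 FPKM with vehicle (100.1 ± 3.90) and 198, 211 and 215 FPKM with pyridostatin (208 ± 8.67). All 6 treated libraries were thus above all 6 vehicle libraries, with means 2.22-fold higher in wild type and 2.08-fold higher in PARP3-/-. On the log2(FPKM + 1) scale, used for all differences below, pyridostatin and vehicle differed by 1.14 (95% interval 1.02 to 1.27) in wild type and by 1.05 (0.92 to 1.18) in PARP3-/-. RNA was measured in bulk, so more cells with CDKN1A transcript and more transcript per cell cannot be told apart, here or for the genes that follow.

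Between genotypes the CDKN1A levels were close. Every PARP3-/- library was above every wild-type library within each treatment. With vehicle the difference was 0.20 (95% interval 0.07 to 0.33, limma adjusted p = 0.0543), and with pyridostatin it was 0.11 (-0.02 to 0.24, limma adjusted p = 0.299). The vehicle difference did pass without the second wild-type vehicle library (0.27, limma adjusted p = 0.00444) and under quantile normalization (0.21, limma adjusted p = 0.0151). The pyridostatin difference in PARP3-/- minus that in wild type was -0.09 (-0.28 to 0.09, limma adjusted p = 0.999).

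**Figure D2:**
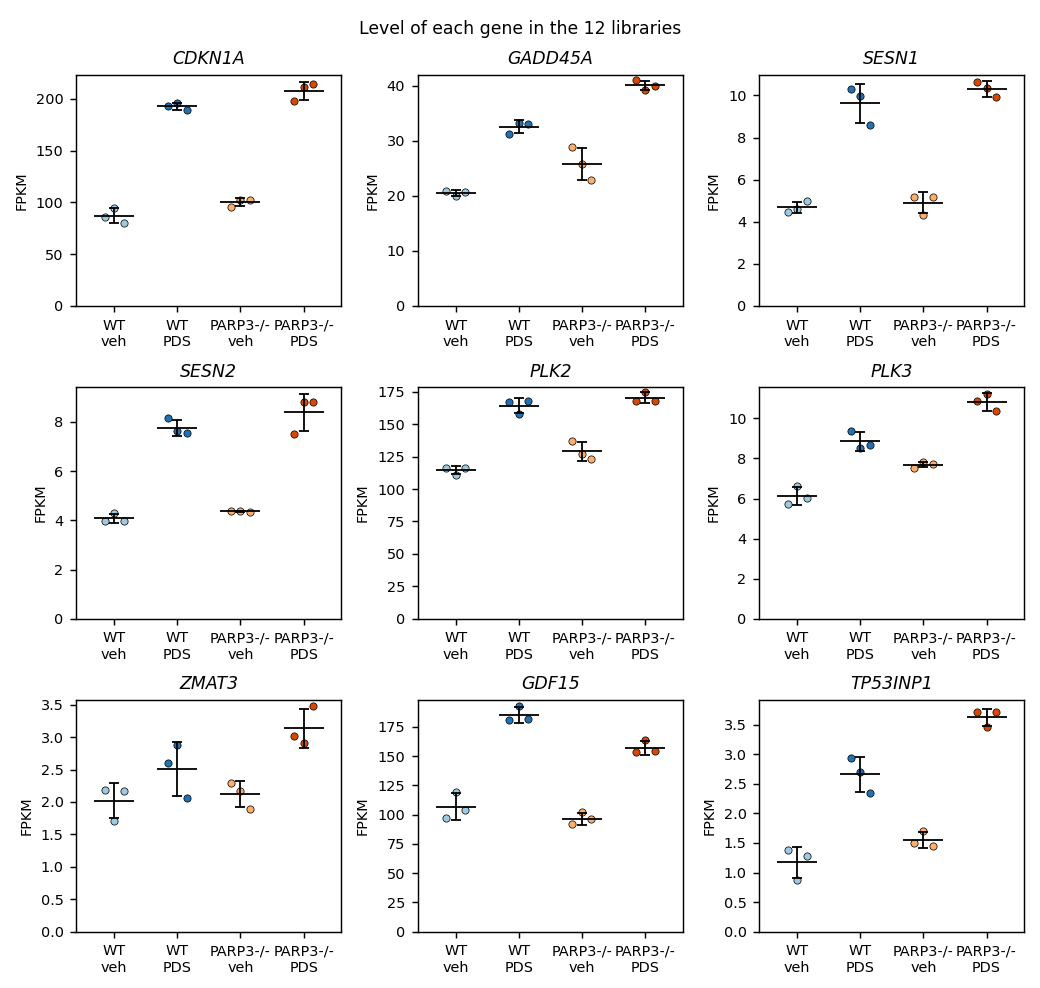
FPKM of the 9 genes (1 panel each, axis from 0) in wild type (WT) and PARP3-/- with vehicle (veh) or pyridostatin (PDS); points are the 3 libraries of a group, the long bar is their mean and the error bar is the SD. For every gene but ZMAT3 in wild type, the treated libraries lie above the vehicle libraries of the same genotype.

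GADD45A, a small stress-response protein, was higher both with pyridostatin and in PARP3-/- cells. Wild-type cells had 20.9, 20.0 and 20.7 FPKM with vehicle (20.5 ± 0.474) and 31.2, 33.3 and 33.1 FPKM with pyridostatin (32.5 ± 1.15). PARP3-/- cells had 28.8, 25.7 and 22.9 FPKM with vehicle (25.8 ± 2.96) and 41.0, 39.3 and 39.9 FPKM with pyridostatin (40.0 ± 0.868). The 4 groups did not overlap, in the order vehicle wild type, vehicle PARP3-/-, treated wild type, treated PARP3-/-. Treated and vehicle cells differed by 0.64 (0.49 to 0.79) in wild type and 0.62 (0.47 to 0.77) in PARP3-/-. The genotype difference passed with vehicle, at 0.31 (0.17 to 0.46, limma adjusted p = 0.0126), and with pyridostatin, at 0.29 (0.14 to 0.44, limma adjusted p = 0.0170). The call with vehicle was lost when only its 6 libraries were fitted (limma adjusted p = 0.115). The call with pyridostatin was lost without the first treated wild-type library (limma adjusted p = 0.0755) and without the first (0.0611) or the third (0.0546) treated PARP3-/- library.

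The sestrins showed the pyridostatin difference and little difference between genotypes. SESN1 had 4.47, 4.62 and 4.97 FPKM with vehicle and 10.3, 9.99 and 8.58 FPKM with pyridostatin in wild type. The PARP3-/- libraries read 5.17, 4.32 and 5.19 FPKM with vehicle and 10.6, 10.4 and 9.91 FPKM with pyridostatin. Means were 2.05-fold and 2.11-fold higher with pyridostatin, and the log2 differences were 0.90 (0.73 to 1.07) and 0.94 (0.78 to 1.11). SESN2 had 3.97, 4.29 and 3.99 FPKM with vehicle and 8.14, 7.64 and 7.53 FPKM with pyridostatin in wild type. Its PARP3-/- libraries read 4.39, 4.36 and 4.36 FPKM with vehicle and 7.52, 8.82 and 8.83 FPKM with pyridostatin. These means were 1.90-fold and 1.92-fold higher, log2 differences of 0.79 (0.66 to 0.92) and 0.80 (0.67 to 0.93). For both genes all 3 treated libraries lay above all 3 vehicle libraries in each genotype. Genotype differences of SESN1 were 0.05 (-0.12 to 0.22, limma adjusted p = 0.788) with vehicle and 0.09 (-0.08 to 0.26, limma adjusted p = 0.523) with pyridostatin. Those of SESN2 were 0.08 (-0.05 to 0.21, limma adjusted p = 0.499) and 0.10 (-0.03 to 0.22, limma adjusted p = 0.371), so that a genotype difference above 0.26 lies outside the interval of either gene in either treatment.

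The polo-like kinases lay far apart in level, PLK2 among the most and PLK3 among the less abundant of the 9 genes. PLK2, which had the highest mean of the 9 genes in vehicle-treated cells of both genotypes, had 117, 111 and 116 FPKM with vehicle (115 ± 3.11) and 167, 158 and 168 FPKM with pyridostatin (164 ± 5.53) in wild type. In PARP3-/- it had 137, 127 and 123 FPKM with vehicle (129 ± 7.36) and 168, 175 and 168 FPKM with pyridostatin (171 ± 3.996). Treated libraries were above vehicle libraries throughout, and the log2 differences were 0.52 (0.41 to 0.62) for wild-type and 0.40 (0.30 to 0.50) for PARP3-/- cells. PLK3 had 5.74, 6.64 and 6.05 FPKM with vehicle (6.15 ± 0.456) and 9.40, 8.52 and 8.66 FPKM with pyridostatin (8.86 ± 0.470) in wild type. The corresponding PARP3-/- values were 7.55, 7.84 and 7.71 FPKM with vehicle (7.70 ± 0.147) and 10.9, 11.2 and 10.4 FPKM with pyridostatin (10.8 ± 0.440). Its pyridostatin differences were 0.47 (0.35 to 0.58) and 0.44 (0.32 to 0.56), and its groups separated by genotype within each treatment as well.

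PLK3 was higher in PARP3-/- by 0.29 with vehicle (0.17 to 0.40, limma adjusted p = 0.00662) and by 0.26 with pyridostatin (0.14 to 0.38, limma adjusted p = 0.00987). The vehicle call was lost when only the 6 libraries of the comparison were fitted (limma adjusted p = 0.0657). PLK2 was higher in PARP3-/- by 0.17 with vehicle (0.07 to 0.27, limma adjusted p = 0.0454), a call that 16 of 20 alternative settings lost, among them the omission of the first vehicle PARP3-/- library (0.12, limma adjusted p = 0.144) or of the second wild-type vehicle library (0.15, limma adjusted p = 0.0723). With pyridostatin the PLK2 difference was 0.05 (-0.05 to 0.15, limma adjusted p = 0.546). PLK2 also had the smallest unadjusted p of the 9 genes for the interaction (-0.11, -0.26 to 0.03, limma unadjusted p = 0.107 and adjusted p = 0.999).

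ZMAT3 differed least with pyridostatin in wild type and is the gene whose treated and vehicle libraries overlapped there. It had 2.19, 1.70 and 2.17 FPKM with vehicle (2.02 ± 0.273) and 2.60, 2.87 and 2.06 FPKM with pyridostatin (2.51 ± 0.417), the lowest treated library lying inside the vehicle range. In PARP3-/- it had 2.30, 2.17 and 1.90 FPKM with vehicle (2.12 ± 0.206) and 3.01, 2.92 and 3.48 FPKM with pyridostatin (3.14 ± 0.302), without overlap. The log2 differences were 0.21 (-0.01 to 0.44) and 0.40 (0.18 to 0.63). These are low levels, for which the added 1 FPKM shrinks the log2 difference; with 0.1 FPKM added they were 0.30 and 0.54. Genotype differences of ZMAT3 were 0.05 (-0.17 to 0.27, limma adjusted p = 0.838) with vehicle and 0.24 (0.02 to 0.47, limma adjusted p = 0.175) with pyridostatin, and its interaction was 0.19 (-0.13 to 0.51, limma adjusted p = 0.999).

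TP53INP1 was the least abundant of the 9 genes in vehicle-treated cells and had the largest ratio of means. It had 1.37, 0.879 and 1.27 FPKM with vehicle (1.17 ± 0.261) and 2.93, 2.70 and 2.35 FPKM with pyridostatin (2.66 ± 0.291) in wild type. In PARP3-/- it had 1.50, 1.71 and 1.44 FPKM with vehicle (1.55 ± 0.136) and 3.71, 3.46 and 3.70 FPKM with pyridostatin (3.62 ± 0.143). The 4 groups did not overlap, and treated means were 2.26-fold and 2.34-fold the vehicle means. On the log2 scale this came to 0.75 (0.55 to 0.96) and 0.86 (0.65 to 1.06), or 1.13 and 1.18 with 0.1 FPKM added. Between genotypes it differed by 0.24 with vehicle (0.03 to 0.44, limma adjusted p = 0.159) and by 0.34 with pyridostatin (0.14 to 0.54, limma adjusted p = 0.0394). That call was lost in 11 of 19 alternatives, by leaving out any 1 of the 3 treated wild-type libraries (limma adjusted p = 0.0503, 0.0736 and 0.153) or of the 3 treated PARP3-/- libraries (0.105, 0.0764 and 0.118), and the difference ranged from 0.28 to 0.44 over all 19.

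GDF15 went with the others in its pyridostatin difference and against them between genotypes. In wild type it had 96.8, 119 and 104 FPKM with vehicle (107 ± 11.6) and 181, 193 and 182 FPKM with pyridostatin (185 ± 6.51). The PARP3-/- cells had 91.9, 102 and 96.0 FPKM with vehicle (96.6 ± 5.15) and 153, 163 and 154 FPKM with pyridostatin (157 ± 5.59). Treated libraries were above vehicle libraries in each genotype, by 0.79 (0.64 to 0.95) and 0.69 (0.54 to 0.85). With vehicle the genotypes overlapped, at a difference of -0.14 (-0.29 to 0.02, limma adjusted p = 0.295). With pyridostatin every PARP3-/- library was below every wild-type library, at -0.24 (-0.39 to -0.08, limma adjusted p = 0.0570). This difference fell short of the threshold but passed under the replicate block (limma adjusted p = 0.0104), under quantile normalization (0.0143), with only the 6 treated libraries fitted (0.0142), and without the first (0.0317) or second (0.00790) wild-type vehicle library.

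**Figure D3:**
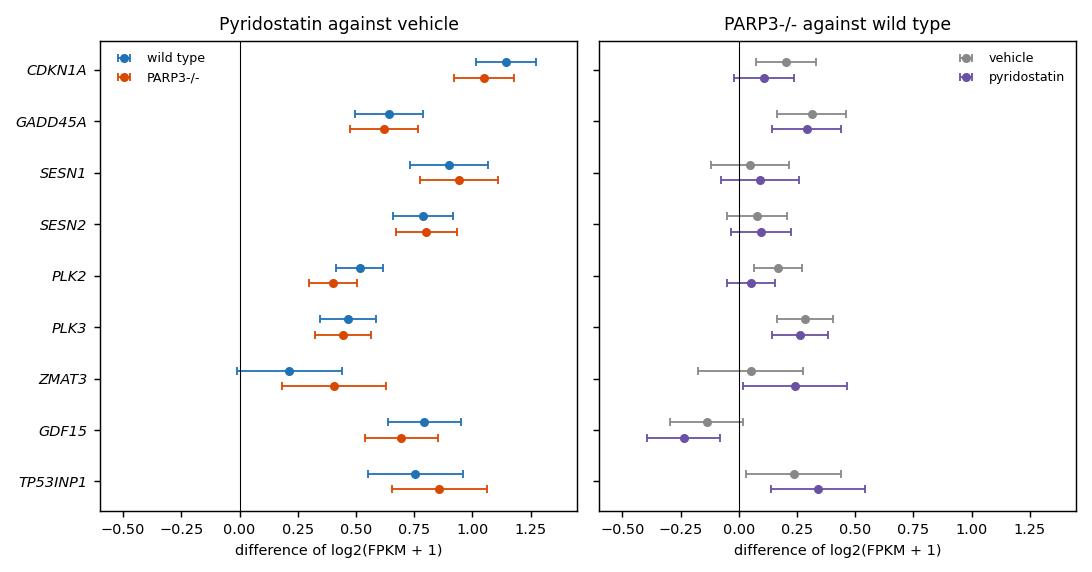
Differences of log2(FPKM + 1) for the 9 genes with 95% intervals: left, pyridostatin minus vehicle in wild type (blue) and PARP3-/- (orange); right, PARP3-/- minus wild type with vehicle (grey) and pyridostatin (purple). Pyridostatin differences run from 0.21 to 1.14, genotype differences from -0.24 to 0.34.

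Across the 9 genes the pyridostatin difference ranged from 0.21 (ZMAT3) to 1.14 (CDKN1A) in wild type, with a median of 0.75, and from 0.40 (PLK2 and ZMAT3) to 1.05 (CDKN1A) in PARP3-/-, with a median of 0.69. The median over all tested genes was 0.00 in both. At a limma adjusted p under 0.05, 8 of the 9 genes were higher with pyridostatin in wild type, all but ZMAT3, and all 9 were in PARP3-/-. The same threshold called 4.17% of all tested genes in wild type, 2.79% higher and 1.38% lower, and 5.56% in PARP3-/-, 3.05% higher and 2.52% lower. Groups did not overlap for the same 8 and 9 genes, and the share of all tested genes without overlap was not computed. With the added requirement of an absolute log2 difference above 1, CDKN1A alone of the 9 was called in each genotype, beside 0.0505% of all tested genes in wild type and 0.0673% in PARP3-/-. Since the higher CDKN1A level was known at the choice of the genes, these counts describe the genes and are read no further.

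For the interaction, limma called none of the 9 genes at an adjusted p under 0.05, and none had an unadjusted p under 0.05. Of all tested genes 0% were called and 521 (4.39%) had an unadjusted p under 0.05. The 9 interaction values ran from -0.11 (PLK2) to 0.19 (ZMAT3). The widest interval, that of ZMAT3, reached 0.51.

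Between genotypes 3 of the 9 genes were called with vehicle (GADD45A, PLK2 and PLK3) and 3 with pyridostatin (GADD45A, PLK3 and TP53INP1), each higher in PARP3-/-. The background was 9.41% of all tested genes with vehicle and 10.9% with pyridostatin. Groups did not overlap in 6 genes with vehicle, each higher in PARP3-/-. With pyridostatin they did not overlap in 7, of which 6 were higher and GDF15 was lower. The share of all tested genes without overlap was not computed, so these counts only describe the 9 genes. At an unadjusted limma p under 0.05 were 5 of the 9 with vehicle and 5 with pyridostatin, against 21.6% and 24.0% of all tested genes. The median difference of the 9 genes was 0.17 with vehicle and 0.11 with pyridostatin, against 0.01 over all genes in both.

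Markers of other cell types moved with genotype too, and their part in these genotype differences was not tested. The summed level of the 4 leukocyte and endothelial markers was 14.0 to 16.2 FPKM in the wild-type libraries and 18.7 to 21.1 FPKM in those labelled PARP3-/-, nearly all of it CD68, with PTPRC, PECAM1 and VWF near 0. The 4 fibroblast markers summed to 0.637 to 1.05 FPKM and to 1.50 to 2.00 FPKM, most of it COL1A1. The 4 epithelial markers summed to 5630 to 6703 FPKM in wild type and 4985 to 5716 FPKM in PARP3-/-, and CDH1, an adhesion protein of epithelia, was lower in PARP3-/- by 0.42 with vehicle (limma adjusted p = 0.00117) and 0.51 with pyridostatin (limma adjusted p = 0.000298). EPCAM, another epithelial marker, had means of 2.12 FPKM in wild type and 1.16 FPKM in PARP3-/- with vehicle. With pyridostatin its means were 1.78 and 0.988 FPKM. Of the markers that could be tested, 4 epithelial and 1 of each other list, limma called none for pyridostatin in either genotype. In wild type 2 epithelial ones had an unadjusted p under 0.05.

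The order of the levels, which FPKM gives per transcript length, shifted with treatment. In vehicle-treated wild-type cells PLK2 and GDF15 came first with overlapping libraries, followed by CDKN1A, GADD45A, PLK3, SESN1, SESN2, ZMAT3 and TP53INP1, each separate from the next. In treated wild-type cells CDKN1A and GDF15 overlapped at the top, PLK2 was the third, and SESN1 overlapped with PLK3, as TP53INP1 did with ZMAT3. In vehicle-treated PARP3-/- cells the overlapping neighbours were CDKN1A with GDF15 and SESN1 with SESN2, whereas in treated PARP3-/- cells they were PLK3 with SESN1 and TP53INP1 with ZMAT3.

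Of the 8 other genes, SESN2 followed CDKN1A most closely over the 12 libraries (Pearson r = 0.992 on the log2 scale), then SESN1 (0.971), PLK2 (0.959), TP53INP1 (0.935), GADD45A and GDF15 (both 0.918), PLK3 (0.906) and ZMAT3 (0.758). These 12 libraries share the split into vehicle and pyridostatin, which sets most of each value. Within the 6 vehicle libraries SESN2 (0.919) and PLK3 (0.906) had the highest values, and within the 6 treated ones SESN2 (0.864) and ZMAT3 (0.819) had. Within the vehicle libraries ZMAT3 (-0.29), GDF15 (-0.09) and SESN1 (-0.005) had the lowest values. Within the treated libraries GDF15 stood apart, at -0.69. Among all other tested genes the 5 closest to CDKN1A over the 12 libraries were EXOC3 (0.993), PHLDA3 (0.992), FDXR (0.991), BTG2 (0.990) and MBD1 (0.989).

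Other p53 targets in lists of the pathway moved the same way. Some of them were already known to be higher with pyridostatin in these libraries, so their counts are not independent evidence of the direction. Genes named from these and the later lists were picked among called genes for the largest pyridostatin difference in wild type. Their pyridostatin p-values therefore only describe them. Of 42 genes in 4 lists, 39 were tested, and 23 (59.0%) rose in wild type and 26 (66.7%) in PARP3-/-, with none lower in either by limma (1 was lower at an unadjusted p under 0.05 in each). Their median difference was 0.36 in wild type and 0.30 in PARP3-/-, against 0.00 over all tested genes in both. Over all tested genes 2.79% in wild type and 3.05% in PARP3-/- were called higher.

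In the list of the p53 regulatory loop 2 of 8 genes rose in wild type and 3 in PARP3-/-. MDM2, the ubiquitin ligase that degrades p53 and is itself a p53 target, rose from 12.8 ± 1.65 to 23.3 ± 0.861 FPKM in wild-type cells (log2 difference 0.82, limma adjusted p = 0.000248) and from 14.0 ± 0.493 to 26.3 ± 1.32 FPKM in PARP3-/- (0.86, limma adjusted p = 0.000204). PPM1D, the phosphatase that ends the response, rose by 0.58 (limma adjusted p = 0.00156) and 0.64 (limma adjusted p = 0.000830). CCNG1, cyclin G1, had a difference of 0.19 in wild-type cells (limma adjusted p = 0.0854, and 0.0204 without the third treated wild-type library) and rose by 0.27 in PARP3-/- (limma adjusted p = 0.0176). The latter call was lost without the second or the third vehicle library or the second or the third treated library of PARP3-/- (limma adjusted p = 0.0596 to 0.0783).

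Among the other arrest targets 3 of 6 tested genes rose in each genotype, led by BTG2, an antiproliferative gene. BTG2 had a log2 difference of 1.21 in wild type (4.63, 4.35 and 4.56 FPKM with vehicle, 11.7, 12.2 and 11.3 FPKM with pyridostatin), beside 1.14 for CDKN1A. In PARP3-/- it had 1.08 (4.67, 6.06 and 5.83 against 12.4, 12.8 and 13.0 FPKM). PHLDA3, a repressor of AKT, rose by 0.79 (limma adjusted p = 0.000193) and 0.83 (limma adjusted p = 0.000142), and KIAA0247, also named SUSD6, rose by 0.38 (limma adjusted p = 0.00485) and 0.30 (limma adjusted p = 0.0159). The second of these KIAA0247 calls was lost without the first or second vehicle library or the second or the third treated library of PARP3-/- (limma adjusted p = 0.0596 to 0.0733).

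Of 14 tested death targets 8 rose in wild type and 9 in PARP3-/-. BBC3, which encodes the BH3-only protein PUMA, rose by 0.87 (limma adjusted p = 0.00122) and 0.92 (limma adjusted p = 0.000831). The death receptor gene FAS rose by 0.78 (limma adjusted p = 0.000287) and 0.69 (limma adjusted p = 0.000589). The list also held TRIAP1, an inhibitor of apoptosis, which rose by 0.47 (limma adjusted p = 0.000464) and 0.42 (limma adjusted p = 0.000839), and the nuclease gene AEN, which rose by 0.47 (limma adjusted p = 0.000156) and 0.30 (limma adjusted p = 0.00134).

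Repair and metabolism targets had the highest share of the 4 lists, with calls in 10 of 11 tested genes in wild type and 11 of 11 in PARP3-/-. FDXR, a mitochondrial reductase, rose by 0.97 (limma adjusted p = 0.000130) and 0.85 (limma adjusted p = 0.000177). SPATA18, a regulator of mitochondrial quality, rose by 0.74 (limma adjusted p = 0.000210) and 0.66 (limma adjusted p = 0.000425). POLH, the translesion polymerase eta, rose by 0.60 (limma adjusted p = 0.00169) and 0.47 (limma adjusted p = 0.00659). DDB2, which recognizes ultraviolet lesions, rose by 0.50 (limma adjusted p = 0.000210) and 0.32 (limma adjusted p = 0.00300).

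Between genotypes 9 of the 39 genes were higher in PARP3-/- with vehicle and 1 lower, and 4 were higher and 1 lower with pyridostatin. Over all tested genes 9.41% and 10.9% were called in these comparisons, in either direction. Among the higher genes in treated cells were KIAA0247 (0.21, limma adjusted p = 0.0398), FAS (0.28, limma adjusted p = 0.0348) and DRAM1 (0.37, limma adjusted p = 0.000208), and the lower one was PERP (-0.25, limma adjusted p = 0.00905), with DRAM1 and PERP named after their values were seen. None of the 39 was called for the interaction by limma, although 3 were under 0.05 before adjustment.

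**Figure D4:**
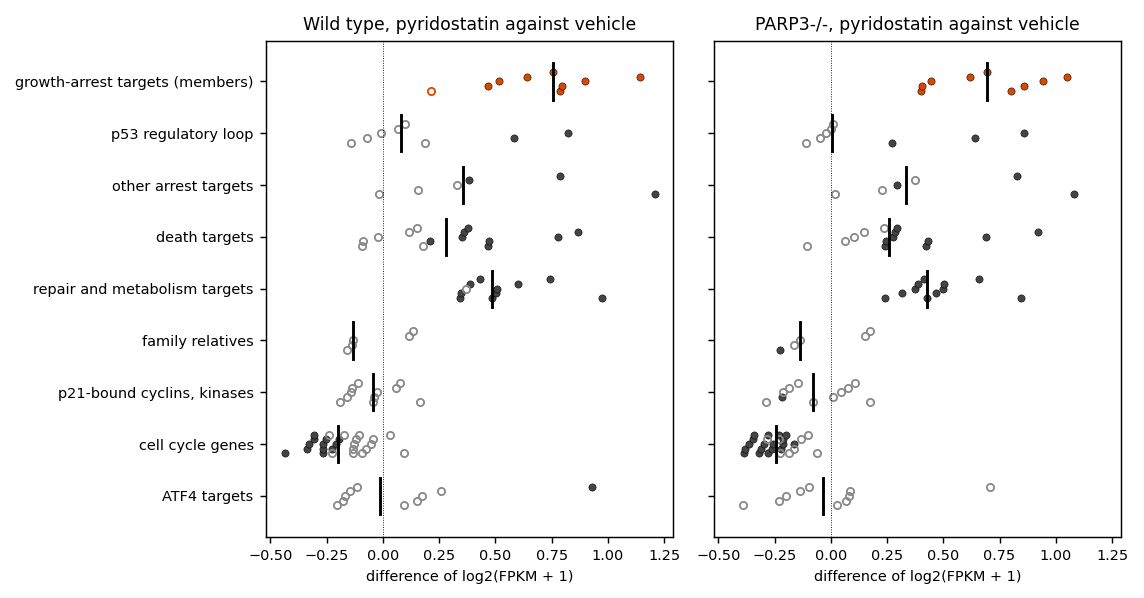
Pyridostatin minus vehicle on the log2(FPKM + 1) scale for each tested gene of 9 lists in wild type (left) and PARP3-/- (right), with filled points for a limma adjusted p under 0.05 and a vertical bar at the list's median. The 9 growth-arrest targets (orange) have medians of 0.75 and 0.69, and the cell cycle genes have medians of -0.20 and -0.24.

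Relatives of the 9 genes in the same families, 5 of them tested, included no gene that rose by limma, with 1 higher and 3 lower at an unadjusted p under 0.05 in each genotype. PLK4, the kinase of centriole duplication, fell by 0.23 in PARP3-/- (limma adjusted p = 0.0403), with -0.13 in wild-type cells (limma adjusted p = 0.208), where it passed without the second wild-type vehicle library (-0.20, limma adjusted p = 0.0198). The PARP3-/- call was lost without any 1 of the 3 vehicle or 3 treated PARP3-/- libraries (limma adjusted p = 0.0897 to 0.138). The cyclins and kinases that p21 binds had median differences of -0.04 in wild type and -0.08 in PARP3-/-. Limma called none of 11 in wild type, with 1 higher and 3 lower at an unadjusted p under 0.05. In PARP3-/-, where differences ran from -0.29 to 0.17, 1 was higher and 6 were lower at that level. Of all tested genes 20.3% in wild type and 19.6% in PARP3-/- had an unadjusted p under 0.05. Only CDK2 was called in PARP3-/-, where it fell by 0.22 (limma adjusted p = 0.0174). Without the third vehicle PARP3-/- library, or the second or the third treated one, CDK2 no longer passed (limma adjusted p = 0.0707, 0.0653 and 0.0694). In wild type CDK2 had a difference of -0.16 (limma adjusted p = 0.0695), which passed under the replicate block (0.0477), with a shift to a common median (0.0335) and without the second wild-type vehicle library (0.0315).

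Among cell cycle genes known to be repressed when p21 is high, many fell with pyridostatin and none rose by limma, nor was any higher at an unadjusted p under 0.05. Of 26 tested genes 12 (46.2%) fell in wild type and 18 (69.2%) in PARP3-/-, with median differences of -0.20 and -0.24. Of all tested genes 1.38% and 2.52% were called lower. For the interaction limma called none of the 26, and their median was -0.07. At an unadjusted p under 0.05 were 3 of them, all negative, against 4.39% of all tested genes. E2F1, the S-phase transcription factor, fell from 25.0 ± 2.23 to 18.2 ± 0.307 FPKM in wild-type cells (log2 difference -0.44, limma adjusted p = 0.00474) and from 23.8 ± 0.926 to 18.0 ± 1.33 FPKM in PARP3-/- (-0.39, limma adjusted p = 0.00803). The replication licensing genes MCM6 (-0.33, limma adjusted p = 0.000933, and -0.38, limma adjusted p = 0.000425) and MCM2 (-0.31, limma adjusted p = 0.00170, and -0.34, limma adjusted p = 0.000831) fell in both genotypes. With only the 6 wild-type libraries fitted, E2F1 (limma adjusted p = 0.0722) and MCM6 (0.0595) no longer passed there. CDT1, another licensing factor, fell in wild type (-0.34, limma adjusted p = 0.0334) and differed by -0.22 in PARP3-/- (limma adjusted p = 0.124), and its wild-type call was lost in 8 alternatives, among them the omission of any 1 treated wild-type library (limma adjusted p = 0.139, 0.0661 and 0.0879). Its PARP3-/- difference passed under the replicate block (limma adjusted p = 0.0435) and without the second wild-type vehicle library (0.0327).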

How the data were processed

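The authors sequenced stranded poly(A) libraries as single reads of 75 bases; the submitters' processing notes name bcl2fastq 2.16, STAR 2.5 and Cufflinks, and the builds mm9 and hg19, with no role given. The deposited values are FPKM per gene name, 1 column per library, with no read counts. The spacing of low FPKM values gave a rough depth of 20800000 to 29400000 reads per library, but too few values lay on whole steps to recover counts, so no counting interval is given and the differential expression method of the study, which needs counts, was not used. All 12 columns matched their samples, and no 2 of them were identical. Genes averaging 1 FPKM or more over the 12 libraries (11881) were kept, and log2(FPKM + 1) was fitted with limma 3.58.1 (R 4.3.3) in 1 model of the 4 groups, eBayes with trend, without scaling, and p-values were adjusted by Benjamini-Hochberg over all tested genes (threshold 0.05); 95% intervals are those of this fit. Fold changes on this scale understate those of low genes. The code was tested on simulated data. The 9 genes and all gene lists were chosen with earlier results of these data known. From each other list up to 4 genes are named, those with the largest pyridostatin difference in wild type among genes called in either genotype, with PARP3, MDM2 and the 5 genes closest to CDKN1A; 1 gene that this rule names is not reported here. Promoter windows come from RefSeq (GRCh38.p14), not from the build of the files, and were searched with Python 3.11.15. Whether reads were counted by strand is not given in the sources used here, so CDKN1A, SESN1, PLK3 and TP53INP1 cannot be told apart from genes overlapping on the other strand, nor GDF15 and SESN1 from small RNA genes within them.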

Additional observations from a re-analysis of the deposited data

How the results depend on the processing

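Under the alternatives tried (pseudocount, filter, scaling, libraries fitted, eBayes trend, replicate block, fold threshold, each library left out) the counts moved as follows. With only the libraries of the comparison fitted, the genotype calls with vehicle went from 3 to 0 of the 9 genes, the pyridostatin calls in wild type from 8 to 6 (without PLK3 and TP53INP1), and those of the 39 other p53 targets in wild type from 23 to 14, PPM1D, KIAA0247 and POLH among the lost. An absolute log2 difference above 1 left 0 genotype calls with vehicle, 0 with pyridostatin, and 1 pyridostatin call in each genotype, both among the 9 genes and among the 39. Without 1 library, genotype calls were 2 to 3 with vehicle and 1 to 4 with pyridostatin (1 without the first treated wild-type, or the first or the third treated PARP3-/- library), pyridostatin calls were 8 and 8 to 9, those of the 39 genes were 20 to 23 and 20 to 29, and interaction calls stayed at 0 by limma. Calls over all genes fitted moved as well. Apart from the fold threshold, the alternatives called 65 to 706 genes for pyridostatin in wild type (495 in the main fit). In PARP3-/- they called 254 to 1559 (661 in the main fit). Between genotypes they called 532 to 1644 with vehicle (1118 in the main fit) and 806 to 2298 with pyridostatin (1297). ZMAT3 lost its pyridostatin call in PARP3-/- in 11 of 19 alternatives, among them the omission of any 1 library of that comparison. With 0.1 FPKM added, the differences were 0.91 and 0.92 for SESN2, 1.02 and 1.06 for SESN1. Of 2146 values of named genes under an alternative, 2039 kept direction and side of the threshold, 91 lost and 16 gained a call, and none that was called reversed; scaling moved the median of all genes by at most 0.0396. In no comparison did all 3 same-numbered pairs deviate together by a correlation over 0.1 (range -0.120 to 0.216). All 3 correlations were positive for genotype with vehicle (0.103, 0.0910 and 0.0663) and for pyridostatin in PARP3-/- (0.0733, 0.0597 and 0.216), while the remaining comparisons had both signs. Correlations over all genes cannot exclude a pairing by replicate number, and GDF15 was lowest in replicate 1 and highest in replicate 2 of each group. The replicate block, as an alternative, gave 2 and 3 genotype calls and 8 and 8 pyridostatin calls among the 9 genes and 23 and 24 among the 39, and ended the genotype calls of PLK2 with vehicle (limma adjusted p = 0.0604) and TP53INP1 with pyridostatin (0.0546). Over all tested genes the block called 1052 between genotypes with vehicle and 1214 with pyridostatin. For pyridostatin it called 411 in wild type and 589 in PARP3-/-. FPKM hold no read counts, so no counting error is given for low genes (ZMAT3, TP53INP1).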

Other observations

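SESN2 and GDF15 are also known as targets of ATF4, the transcription factor of the integrated stress response, and a list of 10 other ATF4 targets was read beside them. With pyridostatin 1 of the 10 rose in wild type, the stress factor ATF3 (3.75, 3.79 and 4.22 FPKM against 7.30, 7.92 and 10.1 FPKM, limma adjusted p = 0.0423), a call lost without any 1 of the 3 vehicle or 3 treated wild-type libraries (limma adjusted p = 0.0746 to 0.149). In PARP3-/- ATF3 had 11.9, 7.19 and 5.23 FPKM with vehicle and 14.9, 13.8 and 11.1 FPKM with pyridostatin, groups that overlapped (limma adjusted p = 0.0966, and 0.0124 without the first vehicle library), and none of the 10 was called by limma at an adjusted p under 0.05, with 4 at an unadjusted p under 0.05. At an unadjusted limma p under 0.05, 3 of the 10 were higher and 4 lower in wild type. In PARP3-/- 1 was higher and 3 were lower at that level. Of all tested genes 20.3% in wild type and 19.6% in PARP3-/- were under it, and 4.17% and 5.56% were called. The median difference of the 10 genes with pyridostatin was -0.01 in wild type and -0.03 in PARP3-/-.

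Between genotypes the same 10 genes were split, 2 higher and 5 lower in PARP3-/- with vehicle and 4 lower with pyridostatin, with medians of -0.15 and -0.22. Of all tested genes 9.41% were called with vehicle and 10.9% with pyridostatin, in either direction. The 4 lower ones with pyridostatin were DDIT4, an inhibitor of mTORC1 (-0.59, limma adjusted p = 0.000239), TRIB3, a pseudokinase (-0.38, limma adjusted p = 0.00318), ASNS, asparagine synthetase (-0.29, limma adjusted p = 0.0137), and PHGDH, of serine synthesis (-0.36, limma adjusted p = 0.00737). GDF15 had -0.24 in the same comparison and SESN2 had 0.10. CCND3, the p21-bound cyclin D3, was lower in PARP3-/- as well, at 74.5 to 80.2 FPKM against 106 to 120 FPKM with vehicle (-0.49, limma adjusted p = 0.000165). These genes were named after their values were seen, apart from ATF3.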
